A study of Mus musculus with 16 samples.

Results

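The immunoglobulin kappa variable genes (Igkv) were described in bulk RNA-seq of 16 MC38 tumors. Members were the Igkv genes annotated as IG_V_gene with at least 10 counts in some tumor, and 70 of the 100 such genes in the table qualified. MC38 is a mouse colorectal carcinoma cell line. All tumors were grown from cells injected under the skin of the right flank of female C57BL/6 mice of 6 to 8 weeks, and the labels name no other allele or agent. Mice whose tumors measured 150 to 250 mm3 on day 16 received 200 µg of control IgG or of the checkpoint antibody aPD-1 on days 16 and 20, and tumors were collected on day 21. The 3 groups were IgG control (n = 8, replicates 1 to 8), aPD-1 non-responder (NR, n = 6, replicates 9 to 14) and aPD-1 responder (R, n = 2, replicates 15 and 16). Each tumor came from its own mouse. Responders had been designated by the study from CD8 T cell staining, and the IgG mice received an antibody as well. Poly(A) RNA came from 2 frozen sections of 100 µm per tumor, so each library held tumor cells, stroma and immune cells together, from a part of the tumor.

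A kappa light chain is made after a B cell joins 1 Igkv segment to a short J segment by DNA recombination. The joined segment is transcribed and spliced to the single constant gene, Igkc. A B cell or plasma cell therefore carries mostly 1 used segment, and the set of segments in a tissue reflects its B lineage cells. Germline segments that have not been joined can be transcribed at a low level in developing B cells. The V segment encodes the antigen-contacting loops 1 and 2 and the start of loop 3, which begins just after a conserved cysteine. In bulk tissue, many cells that use a segment and few cells with much RNA from it cannot be told apart.

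The segments that carried the usage results are shown by their V exons, taken from the GENCODE M21 transcripts on the GRCm38 assembly and printed on the coding strand. The 4 segments used most in the responders are given by the last 290 bases of the V exon, which hold nearly the whole variable region. Capitals mark the codon of the conserved cysteine, after which the segment adds only a short stretch before the join. All of them lie in coding exon sequence of chromosome 6, Igkv6-20 at chr6:70335841-70336130 on the minus strand, Igkv8-19 at chr6:70340876-70341165 on the minus strand, Igkv1-110 at chr6:68270978-68271267 on the plus strand and Igkv10-96 at chr6:68631963-68632252 on the minus strand.
Igkv6-20: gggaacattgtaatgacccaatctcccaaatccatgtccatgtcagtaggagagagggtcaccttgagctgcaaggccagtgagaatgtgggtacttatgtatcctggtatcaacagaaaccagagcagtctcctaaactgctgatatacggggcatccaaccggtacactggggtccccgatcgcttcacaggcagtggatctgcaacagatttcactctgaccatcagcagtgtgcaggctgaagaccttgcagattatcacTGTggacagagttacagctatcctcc
Igkv8-19: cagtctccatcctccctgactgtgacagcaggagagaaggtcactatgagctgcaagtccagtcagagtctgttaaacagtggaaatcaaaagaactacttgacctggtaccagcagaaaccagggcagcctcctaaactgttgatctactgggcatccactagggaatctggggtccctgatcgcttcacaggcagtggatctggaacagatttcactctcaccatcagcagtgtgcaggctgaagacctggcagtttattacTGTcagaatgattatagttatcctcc
Igkv1-110: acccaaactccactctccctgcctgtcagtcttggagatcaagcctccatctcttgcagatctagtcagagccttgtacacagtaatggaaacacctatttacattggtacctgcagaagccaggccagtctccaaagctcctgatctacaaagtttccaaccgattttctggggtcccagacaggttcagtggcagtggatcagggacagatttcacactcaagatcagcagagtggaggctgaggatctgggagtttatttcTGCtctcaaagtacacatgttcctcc
Igkv10-96: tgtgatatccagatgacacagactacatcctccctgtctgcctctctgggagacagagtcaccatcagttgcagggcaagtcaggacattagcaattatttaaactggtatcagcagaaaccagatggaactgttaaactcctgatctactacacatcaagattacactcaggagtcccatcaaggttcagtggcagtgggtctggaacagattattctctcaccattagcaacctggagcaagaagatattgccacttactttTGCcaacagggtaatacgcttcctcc

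The other 6 of the 10 segments with the highest mean usage in the responders, and the segments that held the largest share in an IgG or NR tumor with at least 30 counts, are given by the last 30 bases, the end at which they join to J.
Igkv1-117: ttacTGCtttcaaggttcacatgttcctcc
Igkv8-27: gtttattacTGTcatcaatacctctcctcg
Igkv17-121: ctacTGTttgcaaagtgataacttgcctct
Igkv17-127: ctacTGTttgcaaagtgataacatgcctct
Igkv6-15: tttcTGTcagcaatataacagctatcctct
Igkv3-10: ttacTGTcagcaaaataatgaggatcctcc
Igkv8-24: cttcTGTcagcaacattatagcactcctcc
Igkv8-30: ttacTGTcagcaatattatagctatcctcc
Igkv2-137: ttacTGTatgcaacatctagaatatccttt
Igkv8-16: tttcTGTcagcagcatttacacattcctcc
In 9 of these 10 ends, as in the 4 longer sequences, 23 bases followed the cysteine codon, and in Igkv8-27 there were 18. Igkv17-121 and Igkv17-127, which were 98.0% identical over the V exon, differed over these 30 bases by the single substitution T23A, counted from the first base shown with Igkv17-121 as the reference.

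Close relatives matter here because reads that fit several segments were divided by the counting program. The nearest other Igkv gene was a median of 95.1% identical to a member over the coding part of the V exon, with a range of 74.9% to 99.0% (n = 70). The deposited values of 63 members were whole numbers in every tumor. The 7 with a fractional value, and hence shared reads, included Igkv6-20, Igkv8-16 and Igkv2-137. The others were the pair Igkv5-43 and Igkv5-45 at 99.0% identity and the pair Igkv13-84 and Igkv13-85 at 97.0% identity. Igkv2-137 overlaps Gm42889, a noncoding RNA gene on the same strand that had 1 count in R replicate 15. With which gene Igkv2-137 and Igkv8-16 shared reads was not tested, and the nearest Igkv gene of each had whole numbers. The last 30 bases of both V exons of the Igkv5 pair are the same.
Igkv5-43: tttcTGTcaacagagtaacagctggcctca
Igkv5-45: tttcTGTcaacagagtaacagctggcctca
The split between the members of each pair is uncertain. For Igkv6-20, the most used segment of R replicate 15, the deposited count was 2974.39, rounded to 2974. Its nearest relative Igkv6-29 was 98.3% identical and had 3.61 counts in that tumor. How many reads fit both segments cannot be read from these values.

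Library totals ranged from 26603449 to 39948866 counts, so that a count of 0, which allows up to 3 counts, allowed 0.0759 to 0.114 CPM (counts per 1000000, on library sizes scaled by the trimmed mean of M values, TMM). The R libraries stood apart from the others well beyond the kappa genes. In the fit over all genes, 12.5% of the 18251 genes tested were called higher and 0.663% lower in R than in NR. All 10 B cell genes, all 5 T cell genes, the 5 measured genes of high endothelial venules and lymph node stroma, and all 4 fat cell genes were called higher in R. None of these lists had a member called lower. Genes that passed the filter on low counts through the responders alone, such as Chst4 and Madcam1, had to differ, so these counts are a description. The venule and lymph node stroma list summed to 376 and 116 CPM in R replicates 15 and 16 against 0.202 to 4.05 CPM in NR and 0 to 1.89 CPM in IgG. The fat cell list summed to 2110 and 372 CPM in R, to 20.7 to 86.9 CPM in NR and to 16.8 to 135 CPM in IgG. Of the 4 epithelial markers of the labelled cell type, 3 were called higher in R than in NR. Krt8 was at 31.9 and 13.1 CPM in R and at 0.0304 to 1.37 CPM in the other 14 tumors. Krt18 was at 33.3 and 11.3 CPM in R and at most 1.80 CPM elsewhere, and Epcam at 10.6 and 5.32 CPM and at most 0.942 CPM. Cdh1, which was not called, was at 9.78 and 8.55 CPM in R and at 3.75 to 8.12 CPM elsewhere. What part these cell types have in the kappa results was not tested. IgG replicate 3 had 20.4% of its counts in the ribosomal RNA gene CT010467.1, and IgG replicate 1 had 7.60% in mitochondrial genes.

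**Figure D1:**
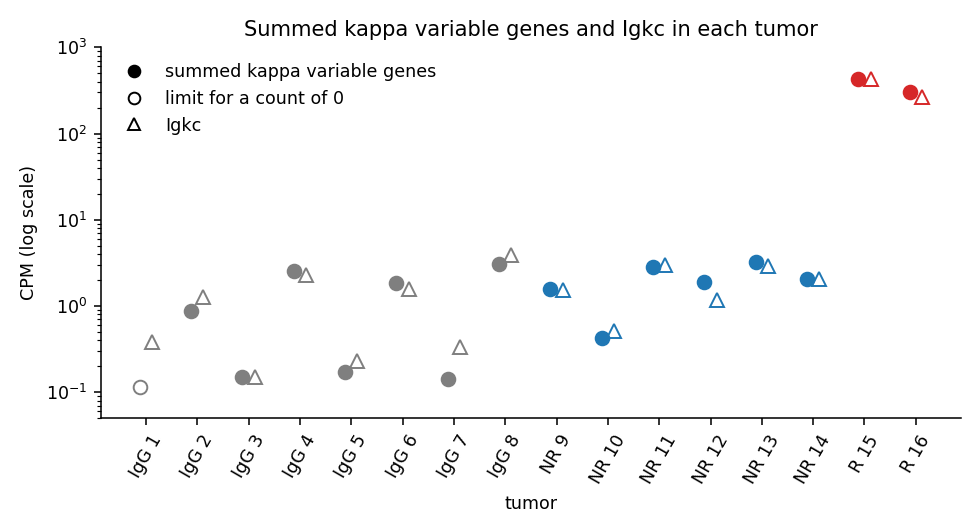
Level of the summed kappa variable genes (circles) and of Igkc (triangles) in each of the 16 tumors, in CPM on a log axis, colored by group. The open circle is the limit of 0.114 CPM for IgG replicate 1, which had no count. Both responders sit at 304 CPM or more for the summed genes and the other tumors at 3.26 CPM or less.

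Kappa variable RNA was abundant in both responders and scarce in every other tumor. The summed members reached 14352 counts in R replicate 15 and 10808 in R replicate 16. In NR replicates 9 to 14 they came to 51, 14, 99, 76, 127 and 61 counts, and in IgG replicates 1 to 8 to 0, 32, 4, 86, 6, 71, 5 and 111 counts. In CPM, the responders were at 424 and 304, NR tumors at 2.01 ± 1.00 (SD, n = 6) and IgG tumors at 1.10 ± 1.23 (SD, n = 8). Neither responder overlapped with any other tumor, whereas NR and IgG tumors overlapped, from 0.425 to 3.26 CPM in NR and from 0 to 3.07 CPM in IgG. No test was made of the sum.

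Igkc, the constant gene to which every segment is spliced, followed the same order. It was at 428 and 267 CPM in R, at 0.516 to 3.02 CPM in NR and at 0.150 to 3.88 CPM in IgG. Its log2 fold change was 7.54 between R and NR (edgeR quasi-likelihood test, Benjamini-Hochberg adjusted p = 2.25e-06). Per tumor, the ratio of summed kappa variable counts to Igkc counts was 0.992 and 1.14 in R, 0.824 to 1.62 in NR and 0 to 1.16 in IgG. The value of 0 came from IgG replicate 1, in which Igkc had 10 counts and the segments none. In the tumors with at least 30 kappa variable counts the ratio ran from 0.696 in IgG replicate 2 to 1.62 in NR replicate 12, and the responders lay within that range. The 5 Igkj genes, the joining segments, were listed at 0 in every tumor, as were the 3 Iglj genes. Joined kappa RNA contains a J segment, so this 0 does not show that J sequence was absent. How reads over J segments were counted was not tested.

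The groups were then compared gene by gene with edgeR's quasi-likelihood test on all 16 tumors. Calls required a Benjamini-Hochberg adjusted p under 0.05 together with a change of more than 1 on the log2 scale. Of the 70 members, 52 passed the filter on low counts. A member that passed through the high counts of the responders had to differ, so the counts below describe the members tested and are not support for a rise of the family. Between R and NR, 51 of 52 were called higher and 0 lower, where 12.5% of all genes tested were called higher. DESeq2 called 41 of the 52, with 12.3% of all genes called higher. Without R replicate 15 edgeR called 46 of 55, with 4.67% of all genes called higher. The log2 fold changes ran from 2.69 to 9.64 with a median of 7.52, against a median of 0.02 over all genes tested. Of the 52, 7 had no count in any NR tumor, and with these at the limit that 3 counts allow the median was 7.37. Between R and IgG, 52 of 52 were called higher, where 14.3% of all genes tested were called higher. The median was 8.01, or 7.85 with the 10 members that had no count in IgG at their limit. The lowest was Igkv13-84 at 3.63 (edgeR adjusted p = 0.0403), which had 28.4 and 24.75 deposited counts in R and 14 in IgG replicate 8, and this call was lost under DESeq2 (adjusted p = 0.283). Both comparisons use the same R tumors, so they are not independent of each other.

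Of all 70 members, 69 had their highest count in a responder, 38 in R replicate 15 and 31 in R replicate 16. Membership needed 10 counts in some tumor, and the 14 other tumors held 0 to 127 kappa counts each. These counts were therefore largely fixed by the membership rule and are a description. In 65 of the 70, both responders were above all 14 other tumors in CPM. Among the 52 tested it was 51, a pattern that 16.7% of all genes tested showed, and the filter on low counts favored it. The 5 exceptions were of different kinds. Igkv2-112 had 44 counts in R replicate 15 and 0 in R replicate 16, and Igkv12-38 had 0 and 20. Igkv1-88 had 157 and 2 counts, the latter below NR replicate 14 in CPM with 3 counts there. Igkv8-24 and Igkv8-16, described below, were high in a single NR tumor. The 18 members that were not tested held 2.58% and 2.08% of the kappa usage in R replicates 15 and 16, and 5 of them had no count in any NR or IgG tumor.

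**Figure D2:**
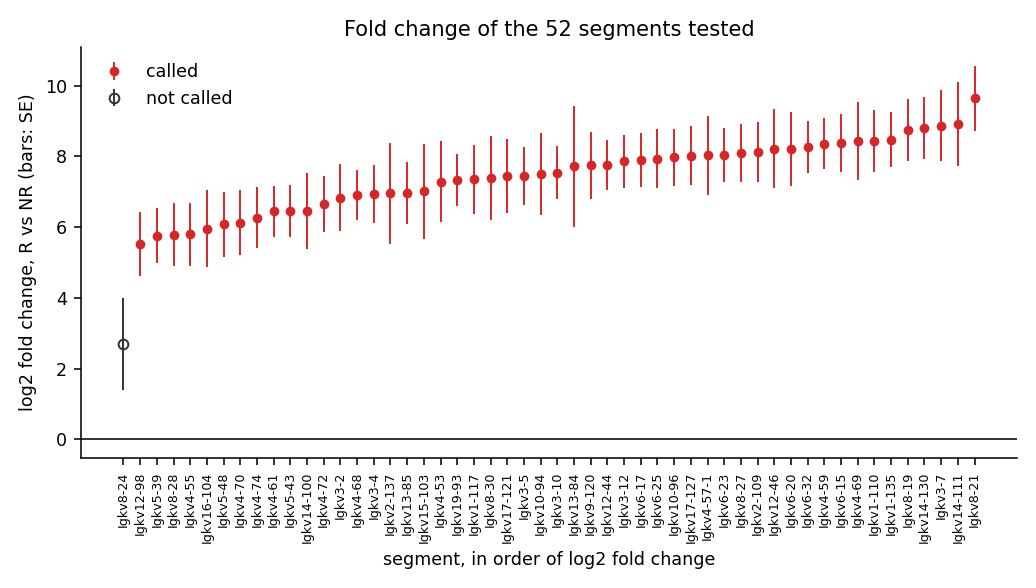
Log2 fold change between R (n = 2) and NR (n = 6) of the 52 segments tested, in order of size, with bars of 1 standard error from the edgeR fit. Igkv8-24 at 2.69 is the open point that was not called, and the other 51 lie between 5.52 and 9.64.

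The 4 segments used most in the responders were chosen on the responders' own counts, so their differences from the other tumors are given as a description, with no test. Igkv6-20 was at 87.9 and 11.3 CPM in R, with a median of 0.217 and a highest value of 0.275 CPM in NR. Its highest IgG value was 0.510 CPM in replicate 4, and 6 of 8 IgG tumors had no count. The log2 fold change between R and NR was 8.22 (SE 1.05), and it was 6.01 without R replicate 15. Igkv8-19 was at 30.9 and 44.7 CPM in R and at most 0.203 CPM in NR and 0.259 CPM in IgG, with a log2 fold change of 8.74 (SE 0.87). Igkv1-110 was at 6.71 and 49.1 CPM in R and at most 0.203 CPM in NR and 0.259 CPM in IgG, with a log2 fold change of 8.43 (SE 0.89), or 6.32 without R replicate 16. Igkv10-96 was at 40.4 and 16.7 CPM in R and at most 0.203 CPM in NR and 0.210 CPM in IgG, with a log2 fold change of 7.97 (SE 0.81), or 7.12 without R replicate 15. For all 4, the lower responder lay far above the highest of the other tumors.

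The remaining 6 of the 10 most used segments had log2 fold changes between R and NR of 8.38 for Igkv6-15, 8.10 for Igkv8-27, 8.02 for Igkv17-127, 7.54 for Igkv3-10, 7.44 for Igkv17-121 and 7.35 for Igkv1-117, again as a description. Several of these were carried mainly by R replicate 15. Igkv17-121 had 953 counts in R replicate 15 and 54 in R replicate 16, and without replicate 15 its log2 fold change was 4.07 and no longer called. Igkv3-10 had 576 and 75 counts and went from 7.54 to 5.29 without R replicate 15. Igkv8-27 had 896 and 235 counts and went from 8.10 to 6.72, and Igkv1-117 had 925 and 364 counts and went from 7.35 to 6.42. Without R replicate 16, Igkv6-15 went from 8.38 to 7.72.

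Of the 3 largest fitted fold changes, that of Igkv8-21 at 9.64 came from a segment with no count in NR. It had 70 and 134 counts in R, at least 204-fold higher in CPM than NR as a group against the limit of 3 counts over the group. Igkv14-111 at 8.91 had 133 and 151 counts in R and a single count in NR, a ratio of 853 with a 95% counting interval of 152 to 33798. Igkv3-7 at 8.87 had 29 and 409 counts in R and 2 in NR, a ratio of 658 with an interval of 181 to 5447, and its log2 fold change was 5.97 without R replicate 16. At the low end, Igkv12-98 with 12 and 15 counts in R and 1 in NR had a log2 fold change of 5.52, and Igkv5-39 with 38 and 30 counts in R and 3 in NR had 5.76. DESeq2 no longer called Igkv12-98 between R and NR (adjusted p = 0.218).

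Igkv8-24 was the single tested member that was not called between R and NR. It had 33 and 139 counts in R, 75 in NR replicate 11, 1 in NR replicate 9, 2 in NR replicate 12 and 0 in the other 3 NR tumors. NR replicate 11 at 2.16 CPM lay between the responders at 0.975 and 3.91 CPM. The log2 fold change was 2.69 (SE 1.3, adjusted p = 0.168 by edgeR). Without NR replicate 11, the segment had at most 2 counts in any NR or IgG tumor. It then passed the filter through the responders and had to differ, so the log2 fold change of 6.88 in that fit is a description.

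No member was called between NR and IgG, and 0% of all genes tested were called there in either direction. At an unadjusted p below 0.05 the edgeR test found 6 of 52 members and 694 of 18251 genes, and DESeq2 called 4 genes and no member. The smallest adjusted p of a member was 0.947, for Igkv8-24 with a log2 fold change of 5.10 (unadjusted p = 0.00259 in the edgeR fit), which fell to 0.91 without NR replicate 11. The next was Igkv3-10 with 1, 2, 4, 3 and 0 counts in NR replicates 9, 12, 13, 14 and the other 2, and 1 count in all of IgG. It had a log2 fold change of 2.80 (edgeR unadjusted p = 0.0133, adjusted p = 0.987). The third, Igkv13-84, had no count in NR and 1, 1 and 14 counts in IgG replicates 3, 6 and 8, with an edgeR adjusted p of 0.987. The tumors of these groups held 0 to 127 kappa counts each, and what part depth and the spread between tumors had in the absence of calls was not tested. A missed threshold does not show that the groups were alike.

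Usage was defined as the count of a segment per kb of its annotated exons, as a share of the sum over the 70 members in the same tumor. In R replicate 15 Igkv6-20 led with 20.6% (2974 of 14352 counts, or 20.7% of counts, 95% Wilson interval 20.1% to 21.4%). It was followed by Igkv10-96 with 9.91%, Igkv8-19 with 7.36%, Igkv17-121 with 6.83% and Igkv8-27 with 6.47%. In R replicate 16 Igkv1-110 led with 15.1% (1746 of 10808 counts, or 16.2% of counts, interval 15.5% to 16.9%), closely followed by Igkv8-19 with 14.9%. Igkv10-96 with 5.73%, Igkv17-127 with 4.66% and Igkv3-7 with 3.95% came next. Intervals cover counting error only, since reads are not independent molecules or cells. 5 segments made up 50% of the usage in R replicate 15 and 7 did so in R replicate 16. Each responder had a count in 69 of the 70 members.

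**Figure D3:**
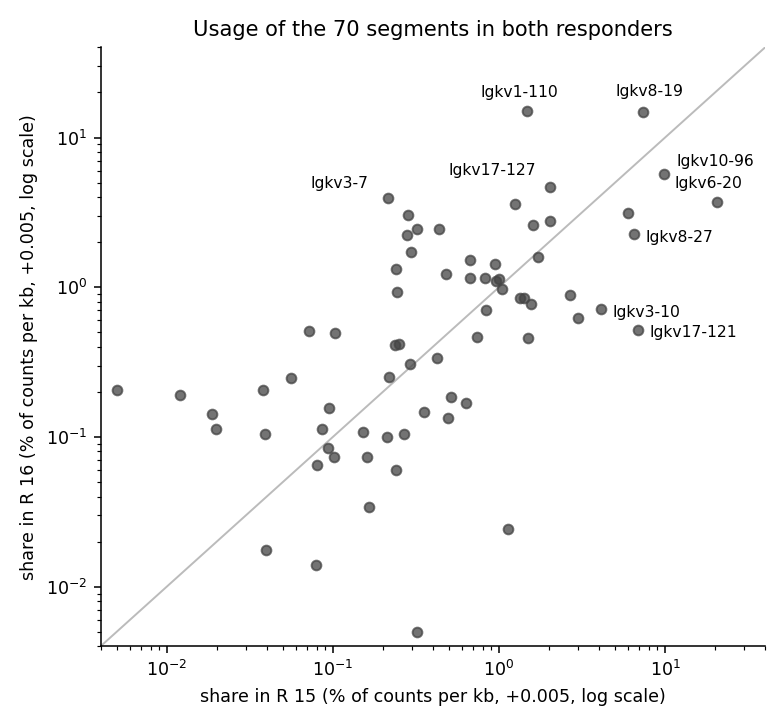
Usage share of each of the 70 segments in R replicate 15 (x axis) and R replicate 16 (y axis), in percent of counts per kb with 0.005 added, on log axes, with the line of equal shares. Igkv8-19 and Igkv10-96 are high in both, Igkv6-20 and Igkv17-121 lie below the line and Igkv1-110 and Igkv3-7 above it.

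The responders shared part of their order of usage. Of the 10 most used segments of each, 5 were common to both, which were Igkv6-20, Igkv8-19, Igkv10-96, Igkv1-117 and Igkv5-43. The Spearman correlation of the shares was 0.64 over the 70 segments, which share the library, the locus and reads between relatives, so it is given as a description. The shares of 30 segments were over 3-fold apart, 13 higher in R replicate 15 and 17 higher in R replicate 16. The largest differences in favor of R replicate 15 were in Igkv6-20 (20.6% against 3.71%), Igkv17-121 (6.83% against 0.516%) and Igkv8-27 (6.47% against 2.26%). Those in favor of R replicate 16 were in Igkv1-110 (15.1% against 1.47%), Igkv8-19 (14.9% against 7.36%) and Igkv3-7 (3.95% against 0.210%). Igkv17-121 and its near copy Igkv17-127 went opposite ways, with 6.83% and 2.01% in R replicate 15 and 0.516% and 4.66% in R replicate 16. With 1 tumor on each side, these differences have no replicate check.

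Families, named by the first number of the symbol, were uneven. The 70 members belonged to 16 of the 20 families in the table. The 7 members of family Igkv6 held 25.8% and 14.6% of usage in R replicates 15 and 16, the 8 of Igkv8 held 17.4% and 20.9%, and the 6 of Igkv1 held 10.4% and 20.0%. The 16 members of Igkv4, the family with most members, held 6.49% and 5.49%. The 2 members of Igkv10 held 10.2% and 5.83%, nearly all of it from Igkv10-96. A large family therefore did not mean a large share, and the order of Igkv6, Igkv8 and Igkv1 changed between the responders.

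The members spanned chr6:67555497-70699067 on GRCm38 and lay 0.028 to 3.17 Mb from Igkc. Some of them are in the orientation of Igkc and join by deletion of the DNA between, and the others join by inversion, 27 on the plus strand and 43 on the minus strand. The plus strand members held 34.0% and 47.9% of usage in R replicates 15 and 16. Usage was highest near and far from Igkc and low between. The 15 members within 0.5 Mb held 41.3% and 35.8%, and the 14 at 0.5 to 1 Mb held 15.8% and 15.1%. The 11 members at 1 to 1.5 Mb held 5.66% and 4.64%, and the 9 at 1.5 to 2 Mb held 3.40% and 2.65%. The 9 members at 2 to 2.5 Mb held 14.9% and 25.4%, and the 12 beyond held 19.1% and 16.4%. Igkv6-20 and Igkv8-19 supplied most of the share nearest Igkc, and Igkv10-96 and Igkv1-110 most of that at 2 to 2.5 Mb, in both responders.

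**Figure D4:**
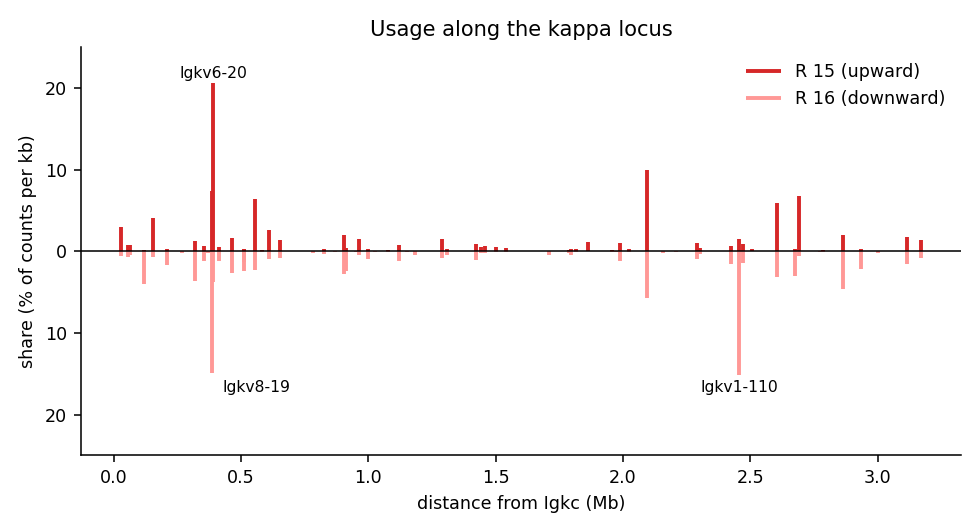
Usage share of each of the 70 segments by its distance from Igkc in Mb, R replicate 15 drawn upward and R replicate 16 downward, in percent of counts per kb. The tallest lines are Igkv6-20 upward at 20.6% and Igkv1-110 and Igkv8-19 downward at 15.1% and 14.9%, and lines between 1 and 2 Mb are short in both.

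Evenness was compared only with the depth in view. Pielou's index, which is 1 if all 70 segments are used equally, was 0.747 and 0.785 in R replicates 15 and 16. The inverse Simpson number, the number of equally used segments that would give the same concentration, was 12.96 and 15.9. These cannot be set against tumors with few counts. Of the 14 NR and IgG tumors, 9 had at least 30 kappa counts, and for these and the responders the number of segments expected in 32 counts was calculated, a depth chosen after the data were seen. It was 16.5 and 17.8 in R. In NR replicates 9, 11, 12, 13 and 14 it was 19.5, 7.20, 20.5, 14.7 and 18.8, and in IgG replicates 2, 4, 6 and 8 it was 10, 16.4, 17.6 and 9.45. At this depth R replicate 15 lay within the range of both other groups, and R replicate 16 lay within that of NR and just above the highest IgG tumor. The other 5 tumors, IgG replicates 1, 3, 5 and 7 and NR replicate 10, had 0 to 14 counts.

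**Figure D5:**
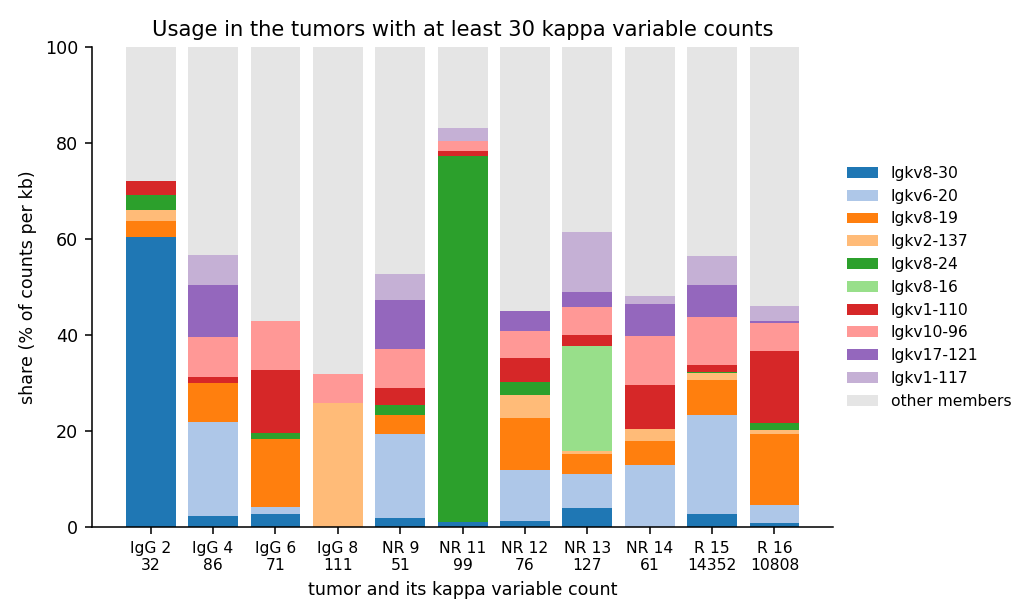
Usage of the kappa segments in the 11 tumors with at least 30 kappa variable counts, as stacked shares in percent of counts per kb, with the count of each tumor under its name. Igkv8-24 fills 76.4% of NR replicate 11 and Igkv8-30 60.6% of IgG replicate 2, while Igkv6-20, Igkv8-19 and Igkv10-96 recur across most of the other tumors.

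A few tumors with low kappa levels were dominated by 1 segment. In NR replicate 11, Igkv8-24 took 75 of 99 counts (75.8%, 95% Wilson interval 66.5% to 83.1%), where its usage was 0.235% and 1.32% in the responders. In IgG replicate 2, Igkv8-30 took 19 of 32 counts (59.4%, interval 42.3% to 74.5%), where its usage was 2.67% and 0.886% in the responders. In IgG replicate 8, Igkv2-137 took 36 of 111 counts (32.4%, interval 24.4% to 41.6%), Igkv15-103 took 19 and Igkv13-84 took 14. Igkv2-137 and Igkv13-84 are 2 of the members with shared reads in the responders. In NR replicate 13, Igkv8-16 took 28 of 127 counts (22.0%, interval 15.7% to 30.02%). That segment was at 0 in the other 13 NR and IgG tumors and at 5.07 and 1.36 counts in R, and it was the single member of the 70 that peaked outside the responders. In NR replicate 10, Igkv5-43, which was among the 10 most used of both responders, took 6 of 14 counts (42.9%, interval 21.4% to 67.4%).

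In 5 other tumors with at least 30 counts, the first segment was one of the 3 most used in a responder. Igkv6-20 was first in IgG replicate 4 with 17 of 86 counts, in NR replicate 9 with 9 of 51 and in NR replicate 14 with 8 of 61. Igkv8-19 led IgG replicate 6 with 10 of 71 counts, level with Igkv1-110, and led NR replicate 12 with 8 of 76, level with Igkv6-20. The intervals of these shares were wide, 12.7% to 29.4% for IgG replicate 4, and within each tumor the intervals of the first and the third segment overlapped.

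The other light chain, lambda, rose as well. All 7 of the tested partner genes, Igkc, Iglc1 to Iglc3 and Iglv1 to Iglv3, were called higher in R than in NR. Over all genes tested, 12.5% were called higher. The other 8 of the 15 partner genes were the joining genes, listed at 0. Iglc1, Iglv2 and Iglv3 had at most 4 counts in any other tumor. Iglc3 had 13 counts in NR replicate 13 and at most 7 in the other NR and IgG tumors. All of these genes passed the filter through the responders and had to differ, so their calls are a description. Iglv1, a lambda variable gene, was at 34.4 and 39.1 CPM in R and at most 0.385 CPM elsewhere, with a log2 fold change of 7.28 between R and NR (adjusted p = 1.29e-06 by edgeR). Per kb, kappa constant RNA exceeded lambda constant RNA 4.79-fold and 7.50-fold in R replicates 15 and 16, and 1.93-fold to 10.5-fold in the 6 NR tumors, so the responders lay within the NR range.

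The B lineage genes differed in how far they separated the responders, and those of the plasma cell list did not all go 1 way. The summed kappa segments were 1.40-fold higher in R replicate 15 than in R replicate 16, Jchain (the joining chain of secreted IgM and IgA) 1.42-fold and Mzb1 (a chaperone of antibody-secreting cells) 1.25-fold. The summed lambda constant genes were 2.58-fold higher, the summed lambda variable genes 1.19-fold and Igkc 1.60-fold. Sdc1 was lower in R replicate 15, at 53.0 against 72.3 CPM, as were Prdm1 at 14.04 against 20.9 CPM and Fkbp11 at 10.4 against 14.99 CPM. Cd79a, a signaling chain of the B cell receptor, was 4.07-fold higher, and Cr2, a complement receptor of mature B cells, 5.45-fold. There were 1.98 and 5.78 kappa variable counts per Cd79a count in R replicates 15 and 16, and 1.11 and 1.13 per Jchain count. In IgG replicate 8 there were 27.8 per Cd79a count on 4 counts of Cd79a. Of the 8 plasma cell genes, 4 were called higher in R than in NR, which were Jchain, Mzb1, Derl3 and Tnfrsf17. Over all genes tested, 12.5% were called higher. Tnfrsf17 had at most 5 counts in any other tumor. Derl3 had 11 counts in IgG replicate 8 and at most 9 in the other NR and IgG tumors. Both passed the filter through the responders and had to differ, so their calls are a description. Xbp1, Sdc1, Prdm1 and Fkbp11, which other cells also express, were not called. Xbp1, at a log2 fold change of 0.54 (edgeR adjusted p = 0.00913), and Fkbp11, at -0.64 (edgeR adjusted p = 0.0471), missed only the required size of change. Sdc1 was at -0.17 and Prdm1 at -0.25, with edgeR adjusted p of 0.703 and 0.692.

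Genes that act on the kappa locus were examined by role. Rag1 and Rag2, the recombinase that joins V to J, were near 0, with Rag2 at 0 in every tumor and Rag1 at most at 0.0562 CPM. Of the 7 recombination and surrogate light chain genes, 2 could be tested, Vpreb3 and Dntt, and both were called higher in R than in NR. In R, Vpreb3 was at 5.26 and 0.703 CPM and Dntt at 0.828 and 0.956 CPM. Vpreb3 had at most 3 counts and Dntt at most 4 in any other tumor. They passed the filter through the responders and had to differ, so their calls are a description. Of 11 factors of the kappa promoter and enhancers, 6 were called higher in R than in NR, where 12.5% of all genes tested were called higher. Pou2af1, the coactivator at the octamer of V promoters, was at 116 and 40.8 CPM in R and at most 0.540 CPM elsewhere, Pax5 was at 118 and 28.7 CPM, and Spib, Irf4, Irf8 and Ebf1 were also called. Tcf3, E2f1, Pou2f1, Spi1 and Pou2f2 were not called. None of the genes of these lists named here was called between NR and IgG.

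Membership turned on a count of 10. The 6 members nearest above it were Igkv12-41 with 10 counts at most, Igkv1-122, Igkv14-100, Igkv4-92 and Igkv5-45 with 11, and Igkv4-50 with 12. The nearest below were Igkv1-132 and Igkv6-14 with 9 counts, Igkv14-126 with 8 and Igkv3-1 with 7. Of the 30 genes left out, 8 were at 0 in every tumor. The 60 annotated kappa variable pseudogenes had 17 and 32 counts in R replicates 15 and 16 and none elsewhere.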

How the data were processed

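RNA-seq was performed on 16 MC38 tumors. The authors aligned reads of 2 × 150 bases to GRCm38 with STAR 2.6 and used RSEM 1.3.0 to obtain expected counts of each gene on an Ensembl annotation, and they deposited these expected counts, not normalized, as 1 table. Expected counts were rounded to whole numbers here, 92 spike-in rows were left out, and 53360 of 53465 genes were matched by identifier to GENCODE M21 (GRCm38), which gave biotypes, positions, exon lengths and V exon sequences. Counts refer to germline segments, and how well joined or mutated segments were aligned was not tested. The members and gene lists were chosen with earlier results of these data known. Library totals were 26603449 to 39948866 counts per tumor.

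All genes passing edgeR's filterByExpr over the 3 groups were fitted with edgeR 4.0.16 (R 4.3.3) on all 16 tumors, with TMM normalization, quasi-likelihood tests and Benjamini-Hochberg adjustment over 18251 genes. The script was tested on simulated data. Alternatives were no filter, at least 10 counts in at least 8 tumors, median-of-ratios factors, DESeq2 1.42.0, fits restricted to both groups of a comparison and omission of each tumor in turn. CPM used TMM-scaled library sizes. Usage was the share of counts per kb of exon, without a test. Ratios of pooled counts carry 95% counting intervals. Named segments were the 10 of highest mean usage in R, the most used of each tumor, the 3 highest and 3 lowest fold changes between R and NR, the 3 largest usage differences each way between the R tumors and the 3 smallest p between NR and IgG. Other members named were chosen after their values were seen. Tumors are separate mice, and no 2 libraries agreed within sampling noise. Some genes of the lists are not reported here.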

Additional observations from a re-analysis of the deposited data

Results flagged for a closer look

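In groups of 6 or 8 tumors, 55 sets of CPM values of named segments were checked for a tumor far from the others. A tumor was flagged if its gap to the nearest other, as a share of the range of the group, passed Dixon's limit. The nominal rate of that limit, about 1 of 20, does not hold here, and the flags are a description. Some segments were named because they were the most used of a tumor, such as Igkv8-24 in NR replicate 11 and Igkv8-16 in NR replicate 13. For a segment at 0 in all other tumors of its group, a single count is enough to pass, so several of these flags rest on 1 to 3 counts.

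Among IgG tumors, replicate 4 was the highest for Igkv6-20 at 0.510 CPM, Igkv17-121 at 0.270, Igkv1-117 at 0.180, Igkv8-27 at 0.120, Igkv8-21 at 0.0600 and Igkv3-10 at 0.0300 CPM. Replicate 8 was the highest for Igkv2-137 at 0.997 CPM, Igkv13-84 at 0.388, Igkv14-111 at 0.277 and Igkv17-127 at 0.166 CPM. Replicate 6 was the highest for Igkv1-110 at 0.259 CPM and Igkv5-39 at 0.0259 CPM, and replicate 2 for Igkv8-30 at 0.520 CPM.

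Among NR tumors, replicate 11 stood apart for Igkv8-24 at 2.16 CPM, and replicate 13 for Igkv8-16 at 0.720 CPM, Igkv1-117 at 0.437 CPM and Igkv8-30 at 0.128 CPM. Replicate 14 was the highest for Igkv14-111 and Igkv12-98 at 0.0339 CPM each, and replicate 9 for Igkv13-85 at 0.0305 CPM, each on a single count.

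The kappa variable pseudogenes, which enter no comparison, had 17 counts in R replicate 15 and 32 in R replicate 16, and 0 in all IgG tumors.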

How the results depend on the processing

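No paired analysis was possible because the groups share no replicate numbers. The calls of the kappa segments as a family kept their direction under the alternatives that could test them. Between R and NR, DESeq2 called 41 of 52 and the fit without a filter 67 of 70, and between R and IgG these were 40 of 52 and 68 of 70. DESeq2 gave no adjusted p for 1 member in each. With at least 10 counts in at least 8 tumors no member could be tested, since most tumors had too few counts, and 1515 genes were called higher between R and NR. Leaving out 1 tumor gave 46 to 52 segments called higher between R and NR, lowest without R replicate 15, and 49 to 53 between R and IgG. With 1 responder left, that tumor is assumed to vary like the other groups. Over all genes, leaving out 1 tumor gave 895 to 2392 genes higher and 37 to 239 lower between R and NR, and 1201 to 2722 higher and 39 to 225 lower between R and IgG. The lowest counts came without R replicate 15, the highest number lower between R and NR came without IgG replicate 1 and that between R and IgG without R replicate 16. Between NR and IgG, DESeq2 called 4 genes higher, and leaving out 1 tumor gave 0 to 2, with 2 without IgG replicate 1. Mean Pielou evenness in R was 0.836 over members with at least 100 counts, where fewer segments enter. For single named segments, 915 values stayed on their side of the threshold, 16 lost the call, 1 gained it and 0 reversed. Of the losses, 10 were Igkv13-84 between R and IgG, and Igkv13-84 also lost its call between R and NR without R replicate 15 (edgeR adjusted p = 0.0625), as did Igkv2-137 between R and IgG (edgeR adjusted p = 0.0837). The cause was not tested. Usage at the depth of the tumor with fewest counts was not run, because that tumor had 0 counts. The fixed depth of 32 counts and the inverse Simpson number allowing for the number of counts, 13.03 and 15.4 in R, were chosen after seeing the data. Counts of 0 to 127 per tumor limit every usage value outside the responders.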

Other observations

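Over all NR tumors together, family Igkv8 had 145 of the 428 kappa counts, of which 75 were the Igkv8-24 counts of NR replicate 11. Family Igkv13 had 1 count over NR and 19 over IgG, of which 14 were the Igkv13-84 counts of IgG replicate 8.

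The plus strand share of usage in tumors with low counts ran from 3.69% in NR replicate 11, whose Igkv8-24 is on the minus strand, to 83.3% in IgG replicate 8, whose Igkv2-137 and Igkv13-84 are on the plus strand. The responders at 34.0% and 47.9% lay between these tumors.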
